A study of Homo sapiens with 4 samples.

Results

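The PI3K-related kinases (PIKKs) ATM, ATR, PRKDC, SMG1, MTOR and TRRAP were examined for RNA co-precipitated with IGF2BP3, an RNA-binding protein known as an m6A reader, in OE-19 cells. These are an established line grown from a tumour of the esophagogastric junction, an adenocarcinoma. The series held 2 IGF2BP3 RIP replicates, each with a deposited peak list, and 2 input replicates, whose values were not analysed here. All 4 samples came from OE-19 cells grown in RPMI1640 medium with serum and fixed with UV. No other treatment or genotype is labelled, and nothing in the labels says whether the replicates were separate cultures. The methods of the study describe UV crosslinking only for another assay, LACE-seq, and name no such step for RIP. A peak was taken as belonging to a kinase gene when its summit, the single base of highest signal given by the peak caller, lay in an exon of that gene in GENCODE 44. By this rule 226 of 44622 peaks belonged to the 6 genes in replicate 1 and 224 of 42723 in replicate 2, that is 226 of 42720 and 224 of 41066 exonic peaks.

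PIKKs are very large proteins. A long array of helical repeats is followed by a FAT domain, a kinase domain that resembles the lipid kinase PI3K, and a short FATC tail at the C terminus. ATM, ATR and the DNA-PK catalytic subunit encoded by PRKDC signal DNA damage, SMG1 phosphorylates UPF1 in nonsense-mediated mRNA decay, and MTOR couples nutrients to growth. TRRAP keeps the fold but lacks catalytic residues, and serves as a scaffold of histone acetyltransferase complexes.

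A pair of sequence sets fixes the positions used in the comparison along the coding sequence (CDS). All were read from GRCh38 (hg38), 5′ to 3′ on the mRNA strand, and PRKDC bases are not shown. The first set marks the centre of each kinase domain. Capitals are the codons for glycine, aspartate, arginine and histidine of the catalytic loop in ATM (chr11:108347296-108347328, plus strand, exon 59), ATR (chr3:142459012-142459044, minus strand, exon 44), SMG1 (chr16:18838606-18838638, minus strand, exon 43) and MTOR, and the 4 aligned codons in TRRAP (chr7:99011217-99011249, plus strand, exon 71). The MTOR stretch is split by an intron, with chr1:11117004-11117014 in exon 50 and chr1:11115447-11115468 in exon 51, minus strand.
ATM: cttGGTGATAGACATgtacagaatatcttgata
ATR: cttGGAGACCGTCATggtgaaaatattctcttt
SMG1: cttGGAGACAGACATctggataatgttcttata
MTOR: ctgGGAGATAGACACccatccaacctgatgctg
TRRAP: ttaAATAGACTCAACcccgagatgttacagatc
The second set is the strongest site of each gene that both replicates called, chosen by the higher of the lower folds of overlapping peaks, and cut to the bases in the exon that both peaks cover. Capitals run from the summit of one replicate to that of the other. They lie in ATM exon 45 (chr11:108321329-108321388), ATR exon 29 (chr3:142505168-142505303), SMG1 exon 23 (chr16:18866621-18866738), MTOR exon 25 (chr1:11209334-11209431) and TRRAP exon 43 (chr7:98956399-98956533).
ATM: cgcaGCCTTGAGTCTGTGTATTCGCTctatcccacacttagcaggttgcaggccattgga
ATR: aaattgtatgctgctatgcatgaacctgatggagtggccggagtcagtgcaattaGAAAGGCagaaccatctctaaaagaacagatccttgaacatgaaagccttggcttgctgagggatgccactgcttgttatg
SMG1: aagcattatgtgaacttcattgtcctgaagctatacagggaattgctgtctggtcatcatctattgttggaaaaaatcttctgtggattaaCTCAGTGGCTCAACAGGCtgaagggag
MTOR: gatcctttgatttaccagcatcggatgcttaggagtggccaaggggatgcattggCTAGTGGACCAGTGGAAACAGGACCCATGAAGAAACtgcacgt
TRRAP: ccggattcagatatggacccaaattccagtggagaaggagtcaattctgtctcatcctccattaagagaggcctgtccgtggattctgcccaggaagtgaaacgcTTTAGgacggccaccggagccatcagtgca

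All 6 genes had exonic peaks in both replicates. Of 20033 protein-coding genes, 28.0% did, and of the 326 with a CDS of at least 7000 nt, the length class of the kinases, 54.6% did. The number of exonic peaks in replicates 1 and 2 was 59 and 56 in TRRAP, 55 and 49 in SMG1, and 38 and 37 in MTOR. ATM had 30 and 36, ATR 32 and 28, and PRKDC 12 and 18. ATM and ATR changed places between the replicates, so their order was not resolved, whereas PRKDC was lowest in both although its CDS of 12387 nt is the longest of the 6.

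Most peaks overlapped between the lists, and most had weak scores. In replicate 1, 162 of 226 peaks (71.7%) had at least 1 bp in common with a replicate 2 peak, against 60.8% of all exonic peaks. In the other direction the share was 71.9% (161 of 224), against 64.6%. Over the 178 genes with a CDS of at least 7000 nt and peaks in both lists, the median share per gene, over the peaks of both lists, was 67.4% (quartiles 48.0% and 82.7%), beside a median of 69.7% over the 6 genes. The median fold enrichment, the caller's ratio of RIP signal to local background at the summit, was 3.16 and 3.15 in replicates 1 and 2, and 2.93 in both over all exonic peaks. In replicate 1, 26 peaks (11.5%) had a corrected q no higher than 0.05, beside 10.1% of all exonic peaks, and in replicate 2, 12 (5.36%) did, beside 7.70%. These shares lay on either side of the background, and 125 (55.3%) and 129 (57.6%) of the peaks had a q of 1, beside 60.9% and 66.0% of all exonic peaks.

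No site passed that limit in both lists. Of 160 pairs of overlapping peaks in the 6 genes, 0 had a q of at most 0.05 in both replicates, beside 3.40% of all pairs of overlapping exonic peaks (917 of 26997). Summits of a pair lay a median of 23.5 nt apart, and 107 pairs were within 50 nt. Across these pairs, which share libraries and are not independent, the log2 folds of the replicates had a Pearson r of 0.21 and a Spearman rho of 0.22.

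**Figure D1:**
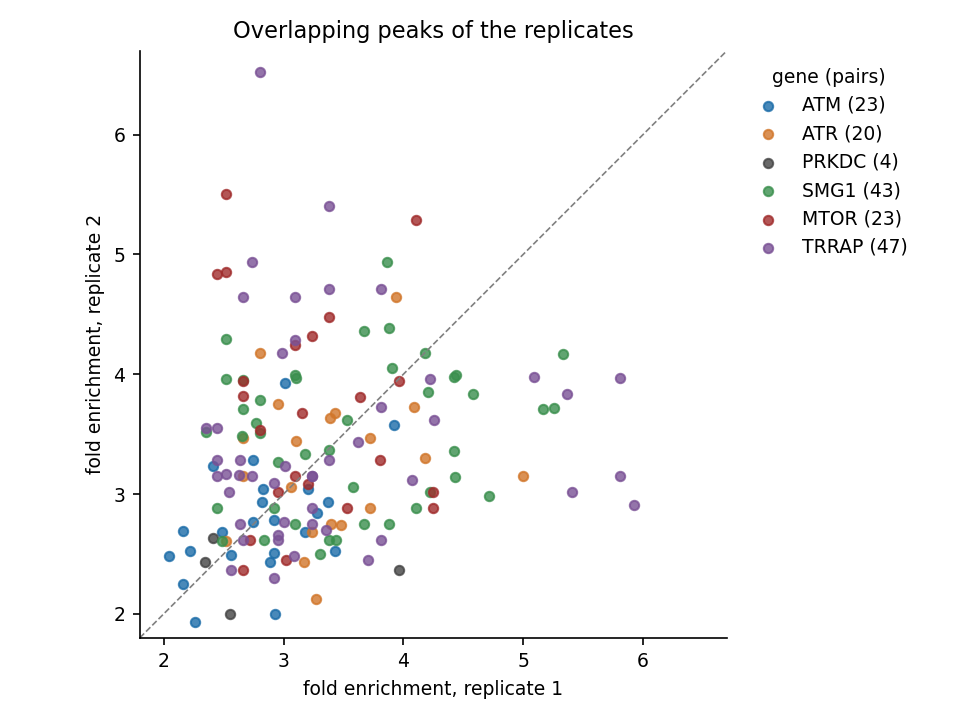
Fold enrichment of the 160 overlapping peak pairs in the 6 genes, replicate 1 on the x axis and replicate 2 on the y axis, both linear, with 1 point per pair and the dashed line at equality. The points form a broad cloud between 1.94 and 6.53 with little slope (Pearson r 0.21 on the log2 scale), and no pair is above 5 in both.

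Nearly all summits were in the CDS. On the canonical transcript 218 of 222 mRNA summits of replicate 1 (98.2%) and 214 of 220 of replicate 2 (97.3%) were coding. Of all mRNA summits, 77.2% and 78.7% were. The kinase mRNAs have long CDSs, from 7650 nt in MTOR to 12387 nt in PRKDC. Their 3′ UTRs ranged from 194 nt in ATR to 4709 nt in SMG1. The coding share among genes with a CDS of at least 7000 nt was not computed. Whether the kinases exceed genes of like CDS length was therefore not tested. In the kinase genes the 3′ UTR held 4 and 5 summits and the 5′ UTR 0 and 1. SMG1 accounted for 4 of the 3′ UTR summits in each replicate, all in its last exon of 4787 nt, and 3 of the 4 had an overlapping partner in the other list. The first of these reached a fold of 5.26 (q = 0.00473) in replicate 1 and 3.72 (q = 0.912) in replicate 2. ATM, with a 3′ UTR of 3594 nt, had no summit there in either list. Apart from SMG1, only MTOR had UTR summits, 1 in each UTR of replicate 2 without a partner in replicate 1, and the upstream one had a fold of 4.81 (q = 0.0157).

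**Figure D2:**
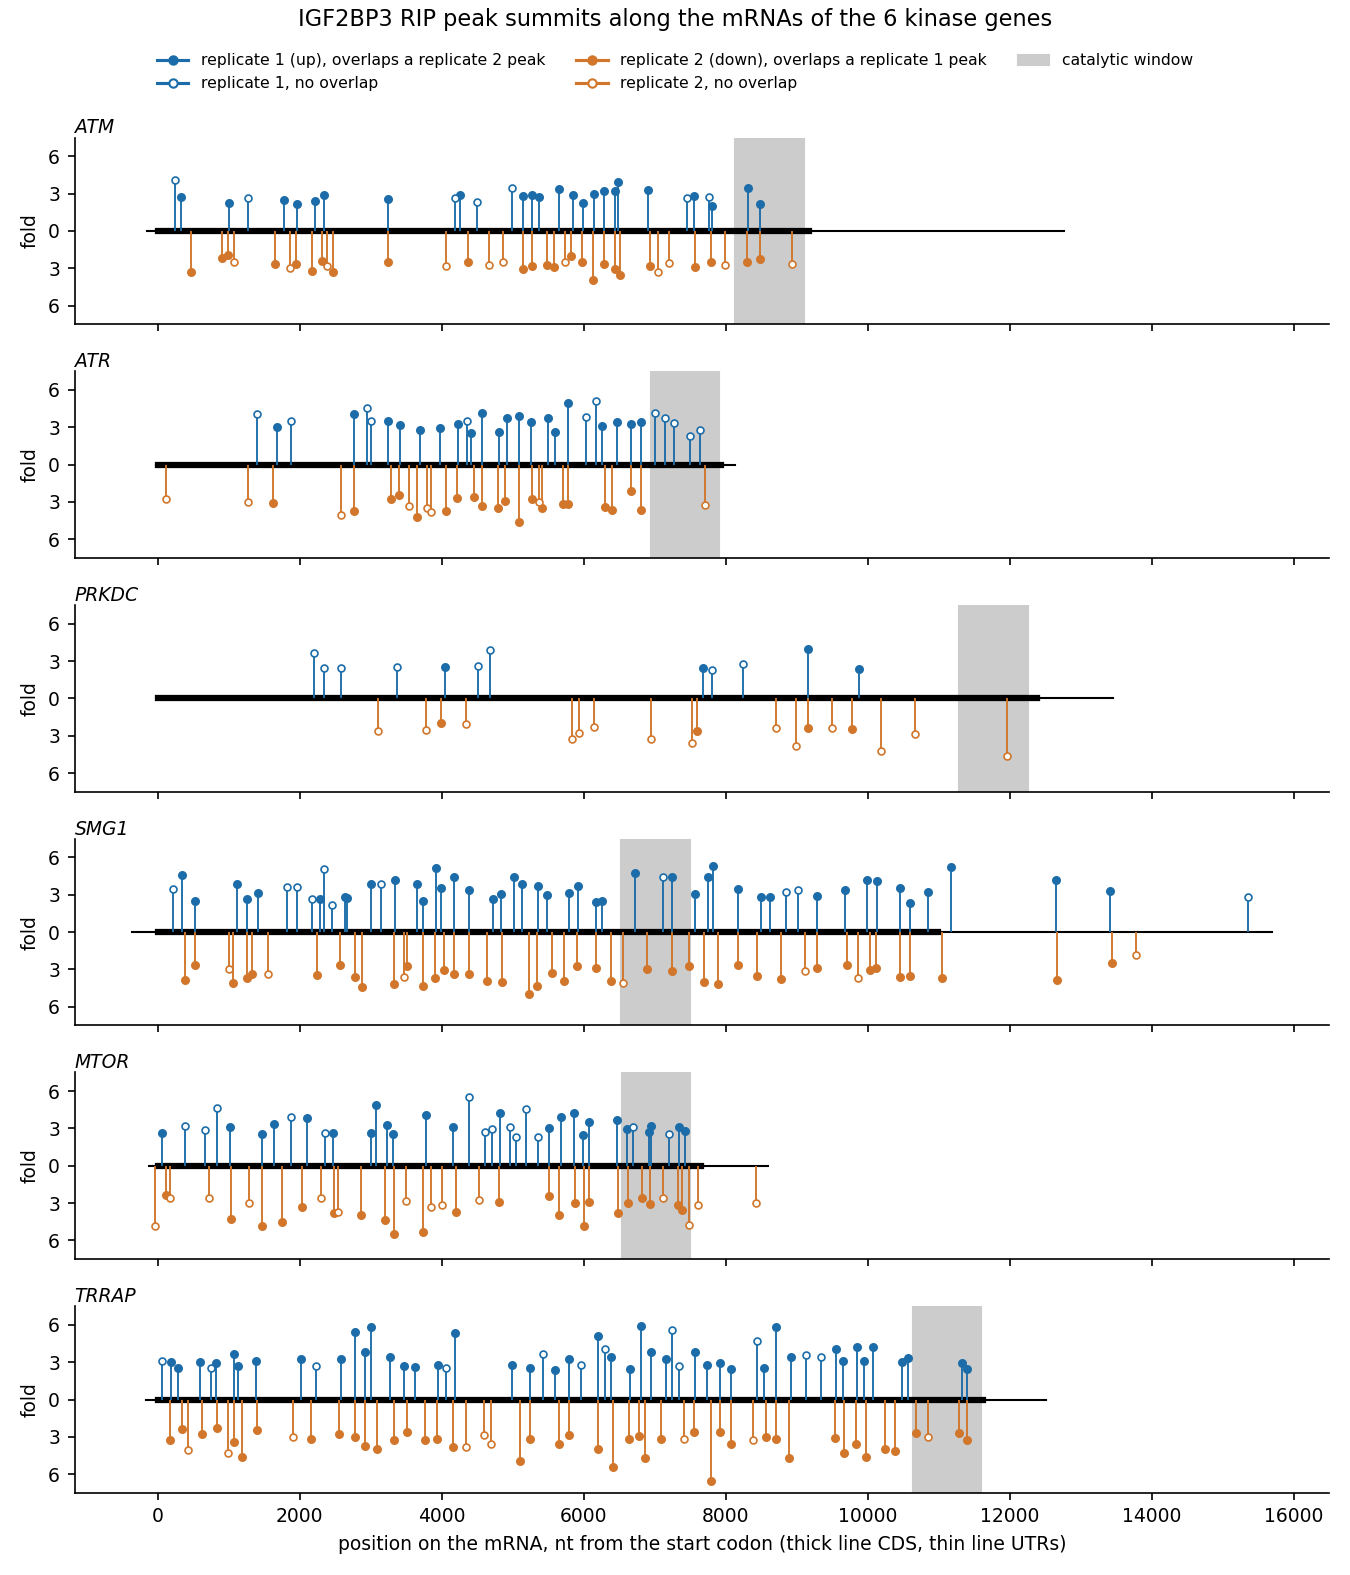
Summits along the 6 mRNAs, with nt from the start codon on the x axis and fold enrichment on the y axis, replicate 1 upward and replicate 2 downward. Filled points overlap a peak of the other replicate, open points do not, grey bands are catalytic windows, and thick lines are the CDS; most points of TRRAP and SMG1 are filled, while PRKDC carries 12 and 18 sparse, mostly open points.

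Most occupied exons held a single summit, in the kinase genes as in other genes. Of the 387 coding exons of the 6 canonical transcripts, 219 held a summit in replicate 1 and 216 in replicate 2. Exactly 1 summit was found in 218 and 215 of them, the exception in both being the last exon of SMG1 with 4. Among all genes with peaks in both replicates, 91.8% and 92.4% of occupied coding exons held 1 summit. Among those with a CDS of at least 7000 nt, 96.2% and 96.4% did. A count of summits per kb was therefore bounded by the number of exons per kb, which ranged from 5.73 in SMG1 to 7.45 in MTOR. A peak covered a median of 73.3% of its exon in replicate 1 and 68.8% in replicate 2. Peaks this wide leave little room for a second peak in a typical exon. Whether the single summits reflect more than peak and exon size was not tested.

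Per kb of CDS, MTOR had 4.77 ± 0.28 summits (SD, n = 2), TRRAP 4.60 ± 0.18, SMG1 4.37 ± 0.39, ATR 3.78 ± 0.36, ATM 3.60 ± 0.46 and PRKDC 1.21 ± 0.34. MTOR, TRRAP and SMG1 could not be ordered beyond their spread, nor could ATR and ATM. SMG1 (4.64 and 4.10) was above ATR (4.03 and 3.53) by a narrow margin, and ATM (3.27 and 3.92) was well above PRKDC (0.969 and 1.45). Among the 178 genes of like CDS length with peaks in both replicates, the kinases ranked 13 (MTOR), 15 (TRRAP), 26 (SMG1), 42 (ATR), 47 (ATM) and 123 (PRKDC), and the median without the 6 genes was 2.16 with quartiles of 0.867 and 3.57. By percent of coding exons with summits in both replicates, MTOR ranked 82 of 178, ATR 81, ATM 88, TRRAP 43, SMG1 37 and PRKDC 153. This percent does not reward short exons, but it favours long ones. Among genes of like CDS length it was 16.2% for exons of at most 99 nt and 47.9% for those of 200 nt or more. MTOR had the shortest exons of the 6 genes, with a median of 129 nt. Neither its rank of 13 nor that of 82 was corrected for exon length.

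**Figure D3:**
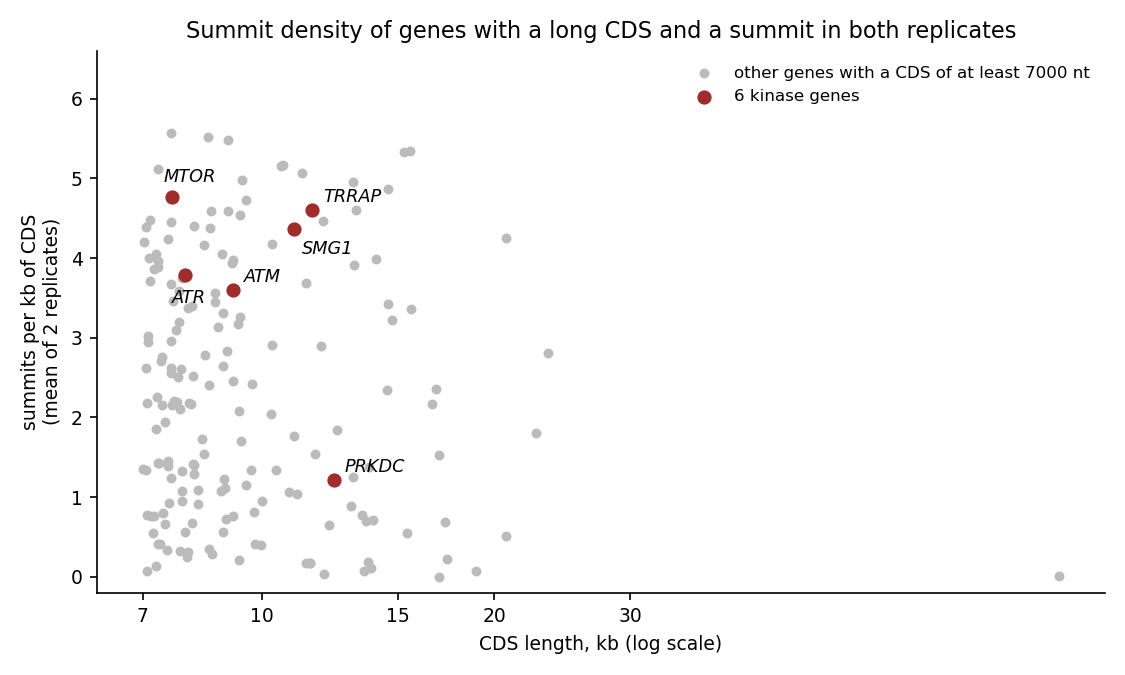
Summits per kb of CDS (y axis, mean of 2 replicates) against CDS length in kb (x axis, log scale) for the 178 genes with a CDS of at least 7000 nt and an exonic summit in both replicates, 1 point per gene. MTOR, TRRAP, SMG1, ATR and ATM lie between 3.60 and 4.77, above the upper quartile of 3.57 of the other genes, and PRKDC lies at 1.21.

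In the 6 genes together 156 of 387 coding exons (40.3%, Wilson 95% interval 35.5 to 45.3, counting error only) had a summit in both replicates. The share was 27.3% over the coding exons of all genes with peaks in both replicates and 33.8% over those with a CDS of at least 7000 nt. SMG1 led with 65.1% (41 of 63), followed by TRRAP with 61.1% (44 of 72). ATR had 42.6%, MTOR 42.1% and ATM 37.1%, values whose intervals overlapped widely. PRKDC had 4.65% (4 of 86, interval 1.82 to 11.4). Longer exons were occupied more often, from 19.7% of those under 100 nt to 61.2% of those of 200 nt or more, and in genes of like CDS length the shares were 16.2% and 47.9%.

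**Figure D4:**
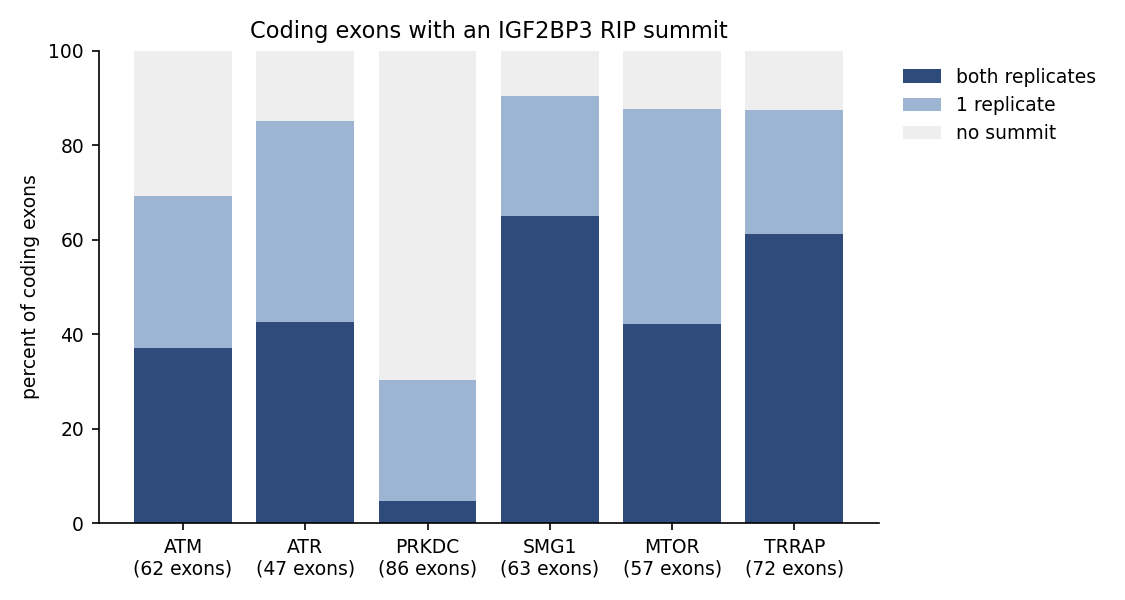
Percent of coding exons (y axis) with a summit in both replicates, in 1 replicate or in none, for each of the 6 genes (x axis, number of coding exons in parentheses). SMG1 (65.1%) and TRRAP (61.1%) have most exons occupied in both, and in PRKDC 60 of 86 exons have no summit in either replicate.

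Summits were spread over the whole CDS rather than gathered at one end. With each CDS divided into 4 equal parts, the 6 genes together held, from 5′ to 3′, 48, 51, 66 and 53 summits in replicate 1 and 40, 58, 64 and 52 in replicate 2. Part 1 was lowest in both. ATR had 3 summits in part 1 and 12 in part 3 of its CDS in both replicates. PRKDC had 3 and 0 in part 1, and no summit before nt 2197 of its CDS in either replicate.

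The kinase domain was compared with the rest through a catalytic window of 160 residues on either side of the loop histidine, or of the aligned residue in TRRAP. The histidine was residue 2872 in ATM, 2477 in ATR, 3924 in PRKDC, 2337 in SMG1 and 2340 in MTOR, and the TRRAP residue was 3706. In the other 4 kinases 240 to 247 residues aligned to the MTOR window of 321, and identity over these ranged from 35.6% to 38.1%. In TRRAP it was 23.1% over 273 aligned residues. The windows made up 9.67% of the CDS and held 19 of 218 CDS summits (8.72%) in replicate 1 and 20 of 214 (9.35%) in replicate 2. Density in the windows was 3.29 and 3.46 summits per kb, against 3.69 and 3.59 in the rest of the CDS, a ratio of 0.892 and 0.963. The mean ratio, 0.927 ± 0.050 (SD, n = 2), moved to 0.735 without MTOR and to 1.02 without TRRAP.

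Peak coverage gave a lower value for the windows. Peaks covered 36.4% of window bases in replicate 1 and 26.3% in replicate 2, and 43.9% and 40.8% of the other CDS bases. Bases covered in both replicates made up 14.6% of the windows and 26.3% of the rest. Of 45 coding exons that reach into a window, 13 (28.9%, interval 17.7 to 43.4) had a summit in both replicates. Of the other 342 exons 143 did (41.8%, interval 36.7 to 47.1). These intervals treat pooled exons as independent, although occupancy ranged from 4.65% in PRKDC to 65.1% in SMG1. Their overlap therefore cannot decide whether the windows differ from the rest. By gene, the window share was the lower in all except MTOR, with only 5 to 10 window exons per gene.

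MTOR was the one gene whose window had more summits per kb than its rest in both replicates. It held 7 in each, or 7.27 per kb, against 4.64 and 4.19 per kb outside. Its window lies on 10 exons with a median length of 82 nt, the rest on exons with a median of 132 nt. Of these 10 exons 5 were occupied in both replicates, and of the other 47 exons 19 were (40.4%). Coverage of the MTOR window was 62.4% in replicate 1, above the 44.9% outside, but 39.8% in replicate 2, below the 42.6% outside. The 5 pairs lay in exons 47, 49, 50, 54 and 55, with folds from 2.62 to 3.54, and the strongest window peak, in exon 56 of replicate 2 (fold 4.73, q = 0.0300), had no partner.

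The ATR window differed most between the replicates. Replicate 1 had 5 summits, 1 in each of exons 41 to 45, with folds of 4.12, 3.72, 3.37, 2.29 and 2.76. Replicate 2 had 1, in exon 46 with a fold of 3.24. None of these peaks overlapped one of the other list, so 0 of 7 window exons were occupied in both, while 20 of the other 40 exons of ATR were. The replicate 1 peak in exon 44 covered the codon of the loop histidine, and its fold of 2.29 (q of 1) was the lowest of ATR in that list. In the other genes that codon was covered only by a SMG1 peak of replicate 1 that spanned the short intron between exons 43 and 44 (fold 4.43, q = 0.0663).

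The other windows held few peaks. In ATM 2 and 3 summits were found, and the pairs in exons 57 and 58 had folds of 3.43 and 2.52, and of 2.16 and 2.25. The TRRAP window had 2 and 4 summits, with pairs at exons 72 and 73. SMG1 had 3 and 4, including the pair in exon 45 whose summits fell on the same base (folds 4.43 and 3.14). PRKDC had 0 and 1, the 1 being its strongest peak of all, in exon 84 (fold 4.61, q = 0.0392), again without a partner. The FATC tail, taken as the last 33 residues, held 1 summit in all, in MTOR exon 57 of replicate 2 (fold 3.14, q of 1). In ATM, ATR and TRRAP the window reaches into this tail, but no window summit lay in the shared part.

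**Figure D5:**
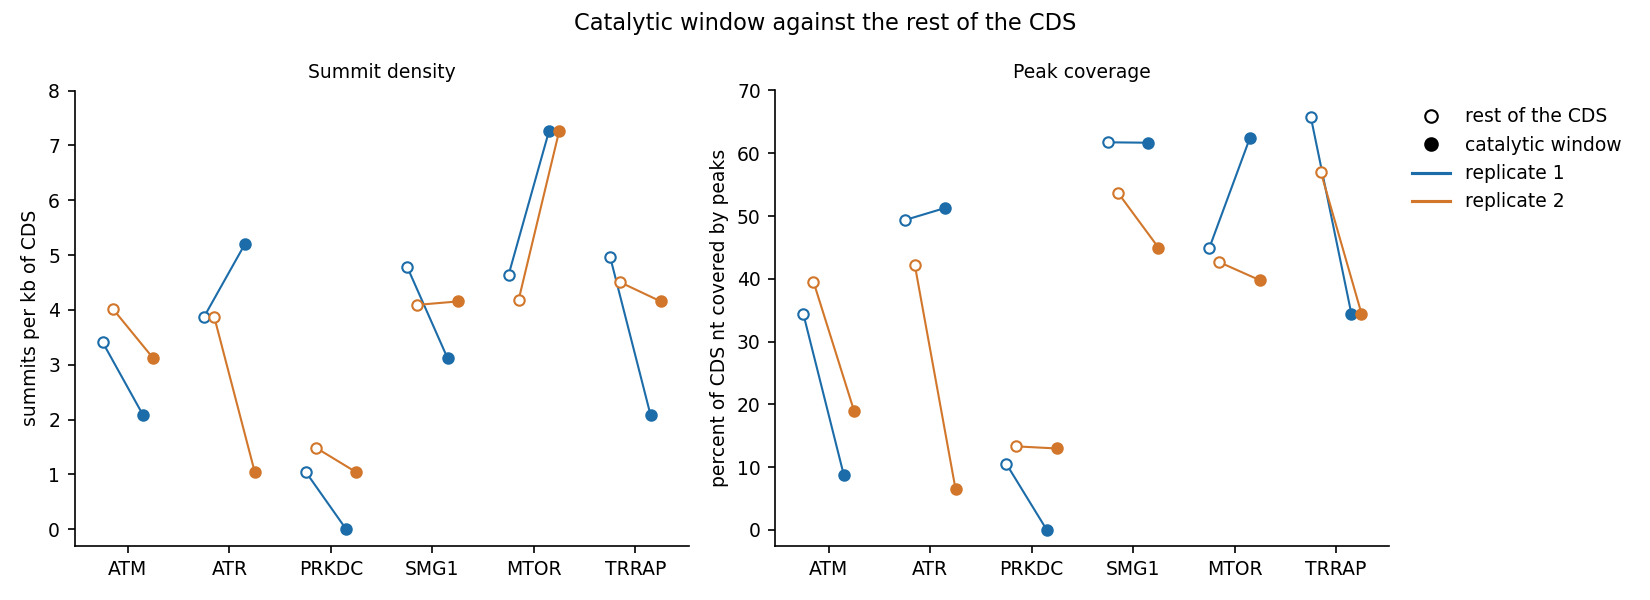
Summits per kb (left) and percent of CDS bases covered by peaks (right) in the rest of the CDS (open points) and the catalytic window (filled points), with a line per gene and replicate. In MTOR both lines rise on the left, to 7.27, but on the right replicate 2 falls from 42.6% to 39.8%; in ATR the replicates part, 51.3% and 6.54% of the window being covered.

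ATM (chr11:108223044-108369102, plus strand) senses double-strand breaks. Its 30 and 36 peaks were all coding, and 23 and 25 of them were found in both lists. The strongest peak of replicate 1 lay in exon 4 (fold 4.06, q = 0.0663) without a partner, and that of replicate 2 in exon 42 (fold 3.93, q = 0.0294) with one. At the site in exon 45 shown above, at residues 2162 and 2169, the folds were 3.93 (q = 0.0177) and 3.57 (q = 0.912), and the summits lay 21 nt apart. The median folds of 2.78 and 2.71 were below those of ATR, SMG1, MTOR and TRRAP in both replicates. In each replicate 1 ATM summit, in exon 51, also lay in an exon of C11orf65, a gene on the opposite strand, and the lists cannot tell the strands apart.

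ATR (chr3:142449007-142578733, minus strand), which responds to single-stranded DNA, had 20 peaks in each list that overlapped the other. At a q limit of 0.05, 5 peaks passed in replicate 1 and 1 in replicate 2. The strongest of replicate 1 was in exon 36 (fold 5.11, q = 0.00356) and had no partner. In exon 29 the folds were 3.94 (q = 0.114) and 4.65 (q = 0.0142) with summits 6 nt apart, the second being the strongest ATR peak of replicate 2. In exon 34 the replicate 1 peak had the lowest q of the gene, 0.000948, at a fold of 4.995, and its partner had a fold of 3.15.

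PRKDC (chr8:47773111-47960178, minus strand) encodes the kinase of the end joining pathway. Only 4 of its 12 and 18 peaks overlapped between the lists, 33.3% and 22.2%, the lowest shares of the 6 genes. The 4 pairs lay in exons 32, 57, 66 and 70. Their folds ranged from 2.002 to 3.96, and a q of 1 was given to 9 of 12 and 14 of 18 peaks. In exon 57, where the lower fold of the pair was highest (2.41 and 2.63), the summits were 89 nt apart and the peaks shared 3 bases. In exon 66 the summits were on neighbouring bases, with folds of 3.96 and 2.37. Leaving PRKDC out raised the share of overlapping peaks in the other 5 genes to 73.8% and 76.2%. Peak lists do not give RNA abundance, so the level of PRKDC mRNA beside these counts is not known here.

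SMG1 (chr16:18804860-18926408, minus strand) had 44 of 55 and 42 of 49 peaks overlapping between the lists. At a q limit of 0.05, 8 peaks passed in replicate 1 and 0 in replicate 2, where its lowest q was 0.0864, although its median fold was 3.43 and 3.51. The strongest peak of replicate 1 was in exon 48 (fold 5.33, q = 0.00821), and that of replicate 2 in exon 34 (fold 4.94). SMG1 is the only kinase of the 6 with a long stretch between kinase domain and FATC tail: 1164 residues follow its window. That stretch held 15 and 13 summits, or 4.29 and 3.72 per kb, against 5.06 and 4.29 per kb before the window.

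Reads of SMG1 can be shared with pseudogene copies. Exons 2 to 29, 28 of its 63 exons, had a near-identical copy elsewhere in the genome, at 95% identity over at least 90% of the exon, as had ATM exon 28 among the other 5 genes. In SMG1, 22 of 55 and 18 of 49 peaks lay in such exons. Peaks there overlapped between the lists in 68.2% and 83.3% of cases, and peaks in the other exons in 87.9% and 87.1%. The site in exon 23 printed above (folds 4.18 and 4.18, summits 17 nt apart) has 7 such copies, so its position is uncertain. The copies SMG1P1 to SMG1P7 held 62 peaks in each list, and 6 of the 7 had peaks in both. The share of all pseudogenes with peaks in both lists was not computed. Peaks at the copies and at SMG1 may rest on the same reads, so they are not separate evidence. Of the uncopied exons, 26 of 35 (74.3%) had a summit in both replicates, and of the copied exons 15 of 28 (53.6%). The uncopied exons were also longer, with a median of 212 nt against 145.5 nt, and include the last exon, whose summits lay in the 3′ UTR. The part of length and of copies in this difference was not tested.

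MTOR (chr1:11106535-11262556, minus strand) had 4 and 5 peaks under the q limit of 0.05. They lay in exons 6, 20, 30 and 37 in replicate 1 and in exons 1, 10, 22, 25 and 56 in replicate 2, with no exon in common. The strongest were in exon 30 (fold 5.52, q = 0.00328), which was 33 nt wide and had no partner, and exon 22 (fold 5.51, q = 0.00469). At the site in exon 25 the folds were 4.10 (q = 0.109) and 5.29 (q = 0.00469), with summits 35 nt apart. In each replicate 1 summit, in exon 34, also lay in an exon of the antisense gene MTOR-AS1 (folds 4.25 and 2.89).

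TRRAP (chr7:98877933-99050831, plus strand) had the most peaks, the highest single fold and 47 overlapping peaks in each list. Its median folds, 3.09 and 3.18, were below those of SMG1 and ATR in both lists. Its strongest peaks were in exon 47 of replicate 1 (fold 5.93, q = 0.000948) and exon 53 of replicate 2 (fold 6.53, q = 6.32e-05), the lowest q of the 6 genes. At the exon 43 site the folds were 5.09 (q = 0.0288) and 3.98 (q = 0.435), with summits 4 nt apart. In each list 4 TRRAP summits lay outside the canonical transcript, in annotated TRRAP exons that overlap exons of SMURF1 on the opposite strand, and 3 more, in exons 64 to 66, overlap an antisense lncRNA (ENSG00000286305). Without the 4, TRRAP had 55 and 52 peaks, beside 55 and 49 in SMG1. Of these, 43 in each list overlapped the other list in TRRAP, beside 44 and 42 in SMG1.

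Motifs known from m6A and IGF2BP studies were counted on the mRNA strand within 50 nt on either side of each mRNA summit. GGAC, the core of the m6A consensus, was present around 27.0% of member summits in replicate 1 and 27.3% in replicate 2. Around all mRNA summits it was present in 32.0% in both, and around every CDS position of the 6 genes in 26.0%. TGGAC, which contains GGAC, was present around 9.46% and 16.4%, against 12.5% of CDS positions. ACACA was found at 14.4% and 13.2%, against 11.7%, and CACTC at 7.21% and 5.91%, against 6.49%. TGGAC and CACTC lay on different sides of the CDS value in the replicates, and GGAC and ACACA were slightly above it in both. That value pools the 6 genes by CDS length, whereas summits were unevenly shared among them. By gene, GGAC lay around 15.6% and 14.3% of ATR summits and 39.5% and 37.8% of MTOR summits. A CDS value for each gene was not computed, so these small differences were not adjusted for the mix of genes. Around all mRNA summits of replicates 1 and 2, TGGAC was present in 12.8% and 12.9%, ACACA in 11.2% and 10.8%, and CACTC in 8.70% and 8.27%. Against these, GGAC and CACTC were lower at member summits in both replicates, ACACA was higher in both, and TGGAC differed in direction. Among the sites printed above, MTOR exon 25 holds GGAC 2 times, 1 of them within TGGAC, as does TRRAP exon 43, and the ATM, ATR and SMG1 sites hold none of the 4 motifs.

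Genes that work with the kinases were taken as fixed groups. Of 11 damage-sensing partners of ATM and ATR, 8 had peaks in both replicates and 1 in neither, where 28.0% of all protein-coding genes had peaks in both. TOPBP1, an activator of ATR, and RAD50, of the MRE11 complex, had a peak with a q of at most 0.05 in each replicate, with highest folds of 5.69 and 4.93, and of 3.91 and 3.93. Of 9 substrates of ATM and ATR, 6 had peaks in both, TP53BP1 with folds up to 5.17 and 4.92 being the only one with a q of at most 0.05 in both. Of 7 end joining partners of PRKDC, 4 had peaks in both and 0 passed that limit in both.

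Of 8 nonsense-mediated decay genes, 4 had peaks in both replicates, beside 28.0% of all protein-coding genes. SMG6, the endonuclease, had a q no higher than 0.05 in both lists, with folds up to 3.91 and 4.07, and UPF1 itself had no peak. Of 13 genes of the mTOR complexes and their inputs, 8 had peaks in both and 5 in neither. TSC1, which restrains MTORC1, reached folds of 5.89 and 4.62, while RPTOR had 18 and 28 peaks and RICTOR 21 and 27.

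Of 11 genes of TRRAP complexes, 6 had peaks in both. SUPT20H of the SAGA complex reached folds of 7.29 and 6.23, EP400 with 41 and 46 peaks reached 5.47 and 5.27, and the acetyltransferase KAT2B reached 3.91 and 4.05. Of 7 genes that assemble PIKKs, such as TELO2 and the RUVBL ATPases, TTI1 and RPAP3 had peaks in both and 4 had none. Over the 66 genes of these 7 groups, 38 had peaks in both replicates, 21 in neither and 7 in 1 replicate, where 28.0% of all protein-coding genes had peaks in both. In 8 of them each list held a peak with a q of at most 0.05, beside 4.93% of all protein-coding genes. The groups were chosen with earlier results known, so these counts are a description. The share of 28.0% covers protein-coding genes of every length and was not matched to the partners in CDS length or expression. Among genes with a CDS of at least 7000 nt the share was 54.6%.

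Few summits lay in introns. Apart from exons of other genes, 2 intronic summits were found in each replicate. Both were in ATM in replicate 1, and 1 each in SMG1 and MTOR in replicate 2. All lay a few nt past the edge of an exon that the peak overlapped: exons 7 and 17 of ATM, 62 of SMG1 and 20 of MTOR. By the summit rule these exons counted as empty in that replicate. The folds of these summits were between 2.16 and 2.77 and all had a q of 1. Within the span of TRRAP, 7 and 6 further summits lay in exons of SMURF1 and were not counted for TRRAP.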

How the data were processed

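IGF2BP3 RIP-seq of OE-19 cells was read from 2 deposited peak lists, 1 per replicate. Groups and replicate numbers came from the sample titles. The submitters' processing notes name fastp, HISAT2 and MACS2 with hg38, while the methods of the study name Tophat2 and MACS2 at default settings. Which library was the caller's control is not given in the sources used here. The authors deposited for each peak a fold enrichment, which is the ratio of RIP signal to local background at the summit. Its −log10 p, uncorrected, and its −log10 q, corrected over the list, were also taken as the authors deposited them. The deposited score was, in 100% of peaks, the whole part of 10 times the −log10 p. The smallest −log10 p was 2.0003 and 2.002 in replicates 1 and 2, where a cut-off of 0.01 on uncorrected p would put it, whereas the MACS2 default is a q of 0.05. The lists fitted the GRCh38 reference in all 24 chromosomes, with 0 peaks past an end, and 13 and 12 peaks on scaffolds were left out of gene assignment. The lists carry no strand and no read counts, so depth is unknown and no floor is given.

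Summits were placed on GENCODE 44 exons and canonical coding transcripts (Python 3.11.15, pandas 2.3.3). Windows were centred on the Gly, Asp, Arg, His motif or, in TRRAP, by local alignment to MTOR (Biopython 1.88, BLOSUM62, gap open 11, extend 1), which gave the same residue in the other kinases. Exon copies were searched with blastn 2.17.0. The tail FATC was set at 33 residues, and intervals are Wilson 95%. No p-value was computed. Placement and overlap were tested on simulated peaks. Members, gene lists and sites were chosen with earlier results of these data known. All 6 genes were described, with their strongest peak in each list, their best overlapping pair and their window peaks, and partner genes by group, naming those with a q of at most 0.05 in both lists. RPTOR, RICTOR, UPF1, TTI1, RPAP3 and exons named for a single low-scoring pair were chosen after their values were seen. 1 listed partner gene is not reported here.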

Additional observations from a re-analysis of the deposited data

How the results depend on the processing

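The 7 summary values were recomputed under other settings, giving 67 values, of which 32 stayed within the replicate spread (for the peak count, within 1.5 times; for exon occupancy, within its interval) and 35 moved. A single replicate always lies within a spread taken from 2, so leaving out a replicate could not move values judged by that spread. The longest coding transcripts encode the same proteins as the canonical ones and gave the same values. The count of 32 is therefore no measure of robustness. Limits on peak strength moved most. The mean number of peaks per replicate, 225, fell to 35.5 at a p of at most 1e-05, 19 at a q of at most 0.05, 8.5 at a fold of at least 5 and 0 at a −log10 q of at least 5. Overlap between replicates, 71.8%, was 8.59% under the limit on p and 0% under those on q of 0.05 and on fold, and exon occupancy, 40.3%, was 0.775% under the limit on p and 0% under the other 3. Under the limits on q of 0.05, fold and p, in that order, the median fold (3.16) was 4.89, 5.41 and 4.59, the percent of summits in the CDS (97.7%) was 92.0%, 96.2% and 95.9%, and the median density (4.17 per kb) was 0.326, 0.0642 and 0.607, with 0 where the −log10 q had to reach 5. The window ratio (0.927) was 1.24 under the limit on q of 0.05, from 0.406 and 2.08 in the replicates, and 0 under that on fold. At a −log10 q of at least 5 no peak was left, so overlap, fold, CDS share and ratio had no value.

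Other settings changed less. Overlap was 72.0% with any overlap of a peak and an exon, 68.5% without SMG1, 71.3% on canonical exons alone and 55.1% where at least 50% of both peaks had to be common. The median fold was 3.14 with peak midpoints and with peaks in both replicates alone, 3.13 with any exon overlap and 3.09 without SMG1. With peaks in both replicates alone the median density was 2.85 per kb and the window ratio 0.787. The ratio was 0.735 without MTOR and 1.02 without TRRAP. Leaving out a replicate gave 224 to 226 peaks, a median fold of 3.15 to 3.16, 97.3% to 98.2% in the CDS, a density of 4.01 to 4.34 and a ratio of 0.892 to 0.963, while overlap and exon occupancy need both replicates. No paired analysis was possible because the inputs were not analysed here and no result comes from a test. With depth unknown and the folds of overlapping peaks only weakly related, small differences in fold between genes or exons cannot be resolved.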
